A study of Mus musculus with 8 samples.

Results

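Open chromatin regions that 2 of 7 bone marrow libraries had in common, and that no other library had, are described here. The peaks of 7 ATAC-seq libraries were merged into 50683 regions wherever at least 1 base was shared, and the 1152 regions that held a peak of ATAC5 and a peak of ATAC6 and of no other library were kept. They were 2.27% of all regions. The libraries, titled ATAC1 to ATAC7, came from stromal cells sorted from the bone marrow of mice of the C57BL/6J strain, all wild type and 6 weeks old, and an Input library was their common control. By the study's methods the sort removed cells with CD31, CD45 or TER119 and took those with PDGFR-α and Sca-1. CD24, CD39 and CD54 then served to divide them, and Ly-6C was a candidate marker. No label ties a title to one of these divisions. Each title had 1 library, so every difference given here is one between libraries, with no replicate check. The regions were chosen by the peaks called in them, and their read counts, folds and ranks in ATAC5 and ATAC6 are given as a description.

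In ATAC-seq the Tn5 transposase cuts DNA that is not covered by nucleosomes and inserts sequencing adapters there, so that a peak marks accessible DNA. Accessible DNA at a start site is usually a promoter, and accessible DNA elsewhere can be an enhancer, which sequence-specific factors such as AP-1, RUNX or GATA proteins open, or a site of CTCF, the zinc finger protein that marks loop ends and insulators. Stromal cells of the marrow support blood formation and give rise to bone, fat and cartilage cells.

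The letters of a CTCF site were the sequence feature in which the shared regions stood farthest from the series, so examples are shown first. The pattern searched has 12 bases and is spelled CCANNAG followed directly by NNGGC. Shown are the 5 best-ranked shared regions that hold it between their own ends, among those of at most 300 bases, over 1000 bases from a start site, over 500 bases from any peak of another library and outside untranslated regions. Better-ranked regions with the pattern that missed one of these limits, such as a longer one in Prrt4, are not shown. The pattern was added, and these examples chosen, after the data were seen. Sequences are from the mm9 genome, plus strand, and capitals mark the pattern on either strand and the 7-base CTCF core AGGNGGC wherever it occurs.
intron of Ppfibp2, chr7:114804886-114804925: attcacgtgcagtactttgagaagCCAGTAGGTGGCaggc
between genes, chr16:5306863-5306935: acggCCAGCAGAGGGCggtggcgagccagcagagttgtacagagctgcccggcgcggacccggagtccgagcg
intron of Dctn6, chr8:35164158-35164444: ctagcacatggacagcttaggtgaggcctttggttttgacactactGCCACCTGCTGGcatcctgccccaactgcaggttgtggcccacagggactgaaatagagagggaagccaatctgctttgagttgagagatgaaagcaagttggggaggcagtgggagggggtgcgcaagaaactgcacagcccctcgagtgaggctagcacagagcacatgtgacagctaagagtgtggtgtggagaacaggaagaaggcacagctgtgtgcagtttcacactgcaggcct
intron of Plcb1, chr2:135154587-135154758: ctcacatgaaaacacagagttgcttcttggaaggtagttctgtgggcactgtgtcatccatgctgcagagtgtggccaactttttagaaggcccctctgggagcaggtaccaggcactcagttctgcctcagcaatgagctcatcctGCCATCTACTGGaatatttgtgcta
intron of Cnnm2, chr19:46944149-46944267: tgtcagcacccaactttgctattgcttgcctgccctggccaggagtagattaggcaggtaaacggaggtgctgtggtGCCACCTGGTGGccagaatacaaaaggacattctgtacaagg
The first lay in an intron of Ppfibp2 and had 85 reads in ATAC5 and 55 in ATAC6, with 9 and 8 Input reads. The one between genes on chromosome 16 had 58 and 60 reads, and the nearest peak of another library was 50690 bases away. The intronic region of Plcb1, a phospholipase gene, had 74 and 64 reads over 4 Input reads in each library, which was 31.6 and 25.1 times Input as the authors scaled it. The pattern also lay in the best-ranked shared region with at least 10 Input reads near any of 20 matrix genes, found between genes at Sparc, which encodes the matrix protein osteonectin, and in the only one near any of 20 lymphoid genes, found in an intron of Arhgef1 next to Cd79a.
between genes at Sparc, chr11:55200118-55200171: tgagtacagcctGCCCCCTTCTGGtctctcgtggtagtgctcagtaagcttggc
intron of Arhgef1, chr7:25691733-25691843: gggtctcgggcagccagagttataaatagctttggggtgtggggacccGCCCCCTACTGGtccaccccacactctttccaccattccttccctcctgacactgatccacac
The region at Sparc had 71 reads in ATAC5 and 50 in ATAC6. The region at Arhgef1 and Cd79a had 94 and 171 reads. With all 7 lists in use, AP-1 letters, TGANTCA, were about as frequent in distal shared regions as in distal regions of the series. Of the best-ranked shared regions with them, 3 chosen within the same limits are shown with the AP-1 letters in capitals. They are followed by the region in Tead1, a transcription factor of the Hippo pathway, which holds the letters at a pair of places.
exon of Prox2, chr12:86435038-86435158: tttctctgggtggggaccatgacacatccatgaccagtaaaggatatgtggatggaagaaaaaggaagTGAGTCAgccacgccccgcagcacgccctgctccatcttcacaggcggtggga
intron of Nr2f2, chr7:77503810-77504032: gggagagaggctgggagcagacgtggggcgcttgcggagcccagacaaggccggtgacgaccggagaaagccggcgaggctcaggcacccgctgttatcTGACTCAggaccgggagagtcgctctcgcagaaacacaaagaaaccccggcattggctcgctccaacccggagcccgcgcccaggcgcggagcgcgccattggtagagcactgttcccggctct
intron of Foxj2, chr6:122774153-122774336: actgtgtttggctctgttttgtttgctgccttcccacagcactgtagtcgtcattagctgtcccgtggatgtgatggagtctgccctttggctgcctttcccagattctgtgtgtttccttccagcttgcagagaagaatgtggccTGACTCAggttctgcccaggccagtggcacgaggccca
intron of Tead1, chr7:119840665-119840824: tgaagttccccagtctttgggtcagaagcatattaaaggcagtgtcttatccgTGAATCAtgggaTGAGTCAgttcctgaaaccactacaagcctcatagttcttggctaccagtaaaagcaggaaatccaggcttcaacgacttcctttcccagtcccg
The region in Prox2 had 113 reads in ATAC5 and 113 in ATAC6. The Tead1 region, 5532 bases downstream of a start site, had 90 and 70 reads. A last example is the shared region 70 bases upstream of a start site of Gata2, a transcription factor of blood stem and progenitor cells. The region itself holds neither kind of letters, while the 200 bases around its midpoint hold a CTCF core.
start site of Gata2, chr6:88148552-88148624: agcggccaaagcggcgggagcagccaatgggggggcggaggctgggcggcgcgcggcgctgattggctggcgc
This region had 104 reads in ATAC5 and 76 in ATAC6 against 47 and 35 Input reads, and the nearest peak of any other library was 90308 bases away.

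Regions of exactly this pair came behind 2 others among the 21 pairs of libraries. Exactly ATAC2 and ATAC6 had 2235 regions and exactly ATAC2 and ATAC5 had 1727, ahead of the 1152 of exactly ATAC5 and ATAC6. The next pair, ATAC1 and ATAC5, had 854, and the pair with the fewest, ATAC6 and ATAC7, had 32. ATAC5 and ATAC6 met in 19479 regions, and 5.91% of these held no other library. ATAC2 was also present in 86.4% of the 19479 and ATAC1 in 70.2%, while ATAC3, ATAC4 and ATAC7 were present in 57.4%, 55.3% and 58.0%. When the ATAC2 list was ignored, the regions of exactly ATAC5 and ATAC6 numbered 4435. Within the regions called in all 7 libraries, the peaks of ATAC6 and ATAC5 held the most reads, 5812837 and 5700480, and those of the other libraries held between 2561419 and 4714898. The part of this difference in depth in the number of shared regions was not tested.

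**Figure D1:**
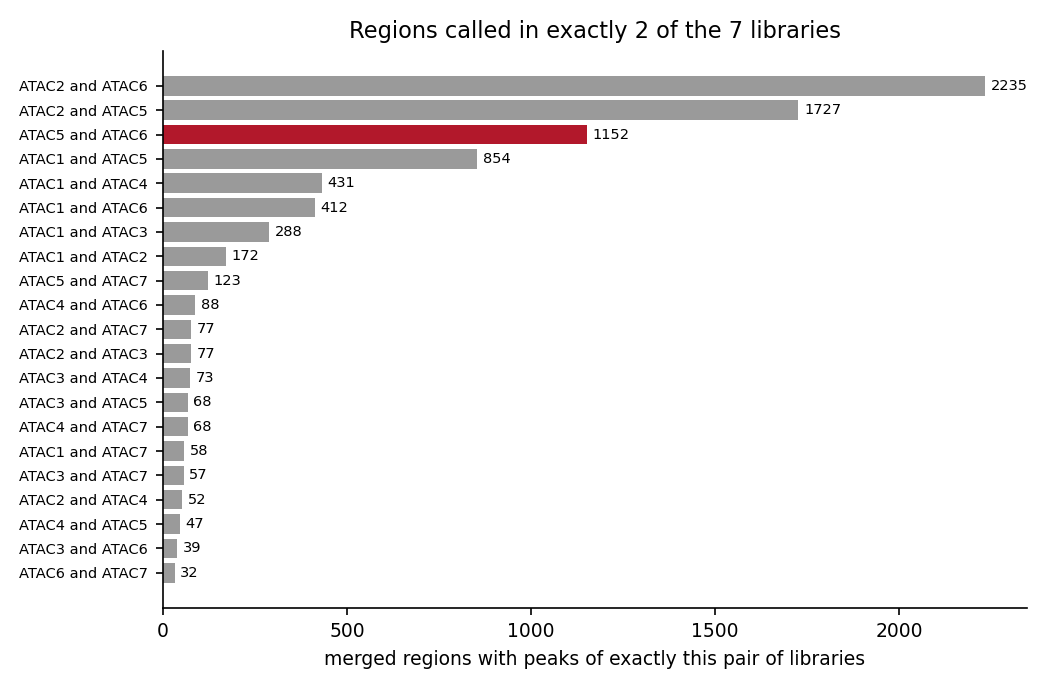
Number of merged regions, on the horizontal axis, that held peaks of exactly the pair of libraries named on the vertical axis. The red bar is ATAC5 and ATAC6 with 1152 regions, below ATAC2 and ATAC6 with 2235 and ATAC2 and ATAC5 with 1727.

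Shared regions were weak in both libraries. The authors counted reads over a wider outer region around each peak. ATAC5 had 25 to 1545 reads in a shared region with a median of 74, and ATAC6 had 28 to 1211 with a median of 67, while the medians over all peaks of these lists were 124 and 122. Input held a median of 15 reads in the shared regions of each library, and 23 and 24 over all peaks of ATAC5 and ATAC6. The authors' fold over Input, a ratio scaled per library, had a median of 8.10 in ATAC5 and 6.99 in ATAC6, compared with 10.9 and 10.1 over all peaks. Only 9 shared regions had at least 200 reads in both libraries, and 749 had under 100 in both. In the authors' rank order the median shared region lay at 70.0% of the ATAC5 list and at 74.3% of the ATAC6 list, counted from the best peak. Only 74 lay in the better-ranked 50% of both lists.

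Both libraries gave like counts in most shared regions. ATAC5 had more reads in 692 regions and ATAC6 in 443, and 17 had equal counts. The ratio of ATAC5 to ATAC6 reads ran from 0.271 to 4.85 with a median of 1.09, and it passed 2 times in either direction in 131 regions, 97 of them higher in ATAC5. Pearson's r of log2 reads was 0.575 across the 1152 regions, which describes these libraries only, because wide regions collect more reads in both and the 2 counts share a position. Per 1000 bases of outer region, r was 0.464. The peaks of both libraries shared a median of 70 bases, which was 97.6% of the shorter peak, and in 537 regions the shorter peak lay wholly inside the longer. In 1095 regions each library had 1 peak, and 57 regions held more.

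**Figure D2:**
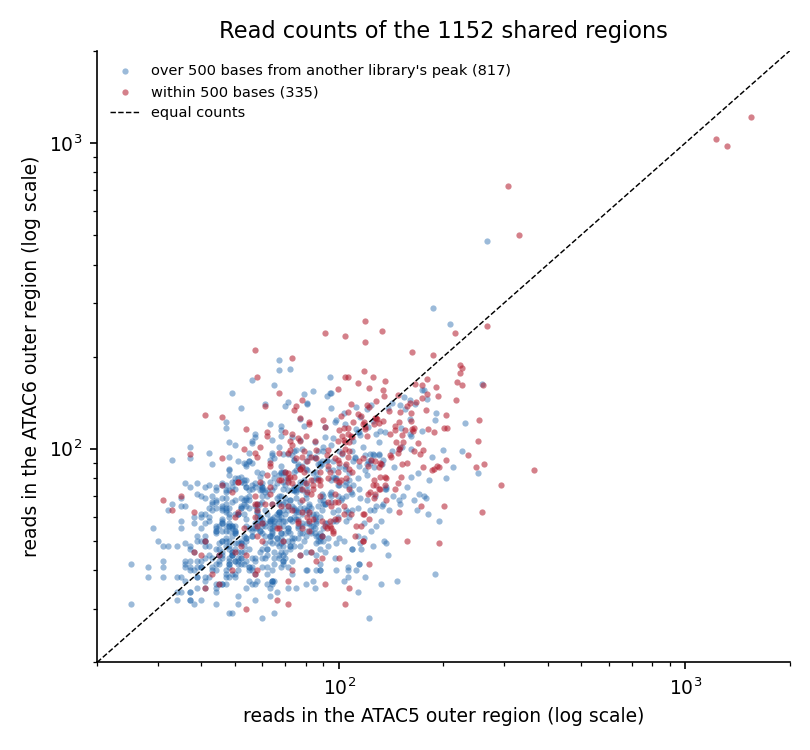
Reads in the outer region of the best-ranked ATAC5 peak (horizontal axis) and ATAC6 peak (vertical axis) of each of the 1152 shared regions, both on log scales, with a dashed line at equal counts. Most points lie between 25 and 200 reads on both axes. The 5 points with over 300 reads in both libraries are red, within 500 bases of a peak of another library.

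The absence of other libraries was a matter of distance in many cases. The nearest peak of ATAC1, ATAC2, ATAC3, ATAC4 or ATAC7 lay a median of 3762 bases away. It lay within 10 bases in 84 shared regions, within 100 bases in 214, and within 500 bases in 335, leaving 817 regions, or 70.9%, farther than 500 bases. ATAC2 had the nearest peak in 599 regions and ATAC1 in 266, and each of the remaining libraries had it in 94 to 97. A shared region overlapped the outer region of another library in 255 cases, 206 of them with ATAC2. The files give no reads for a library where it has no peak, so a peak that is missing is not a measured lack of signal. Regions within 500 bases of another library held more reads, a median of 101 in ATAC5 and 89 in ATAC6, than regions beyond it, with 67 and 61. Their outer regions were also wider, with medians of 392 and 382 bases against 302 and 285, and 46.9% against 26.1% were promoters. The part of width and position in this difference was not tested. Just inside the rule, the 84 regions within 10 bases of another library had medians of 103 reads in ATAC5 and 87.5 in ATAC6. Just outside it were 98 regions in which 1 further library shared at most 10 bases with ATAC5 or ATAC6, and there the medians were 85 and 76 reads.

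**Figure D3:**
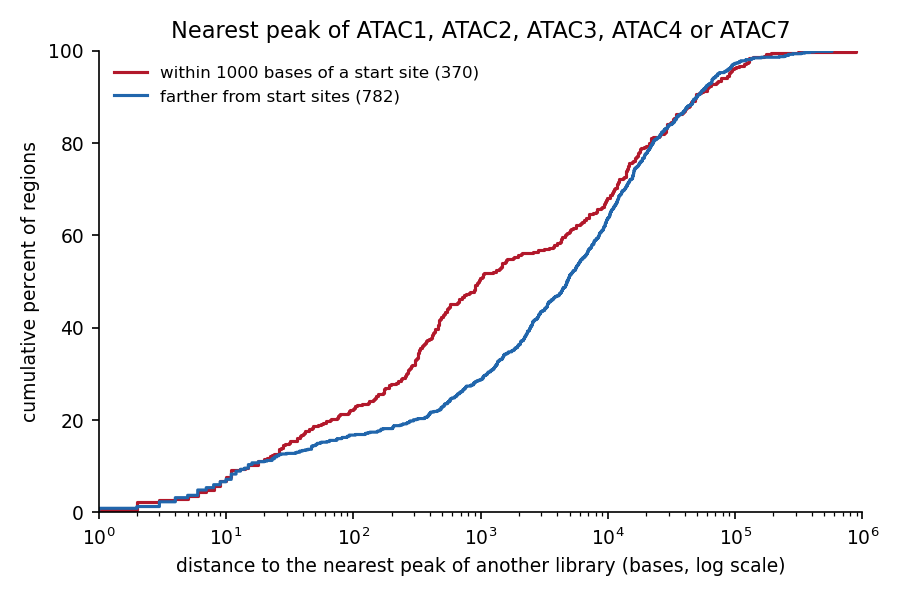
Cumulative percent of shared regions (vertical axis) against the distance to the nearest peak of ATAC1, ATAC2, ATAC3, ATAC4 or ATAC7 in bases on a log scale (horizontal axis), for the 370 regions within 1000 bases of a start site and the 782 farther away. Another library lay within 500 bases in 42.4% of the former and in 22.8% of the latter.

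Most of the strongest shared regions lay beside other merged regions. Of the 10 best-ranked regions with at least 10 Input reads in both peaks, 8 had an outer region in ATAC5 or ATAC6 that reached into another merged region, which at Smtnl2 held a peak of ATAC5 alone. Over all shared regions this held for 258, or 22.4%. The best-ranked lay 34 bases upstream of a start site of Setd2, a histone H3 lysine methyltransferase, at chr9:110434956-110435178. It had 1228 reads in ATAC5 and 1026 in ATAC6, counted over 1422 and 1413 bases, with an ATAC4 peak 36 bases away. The region 161 bases upstream of Rhoq, which encodes a small GTPase, had 1545 and 1211 reads with an ATAC7 peak at 76 bases. The region at the start of Hipk3, a kinase gene, had 1319 and 974 reads with an ATAC7 peak at 131 bases. In these 3 promoters the libraries ATAC3, ATAC4 and ATAC7 had peaks of their own beside the shared region, as did ATAC1 and ATAC2 at Setd2 and ATAC2 at Hipk3.

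Most of the next by rank lay away from promoters. The intronic region of Adamts17, a gene of a secreted metalloproteinase, at chr7:74257600-74257819 had 331 reads in ATAC5 and 500 in ATAC6, and an ATAC2 peak with 541 reads lay 23 bases away. The intronic region of Iqsec1 had 307 and 723 reads with an ATAC2 peak at 7 bases. The region 35534 bases from Cyr61, which encodes a secreted matricellular protein and is a target of YAP, lay at chr3:145277352-145277479. It had 268 reads in ATAC5 and 477 in ATAC6 against 34 and 39 Input reads, and the nearest peak of another library was 6992 bases away. This was the strongest of the 10 by fold among those without a near neighbour, at 13.5 and 19.3 times Input. The start site of Smtnl2 also stood apart, with 209 and 255 reads and an ATAC2 peak 17797 bases away. The other 3 were at Irx3, at Dab2ip and near a noncoding transcript on chromosome 1, the last with 187 and 289 reads against 86 and 88 Input reads.

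By position, shared regions were less often promoters than regions of the series as a whole. Their midpoint lay within 1000 bases of an annotated start site in 370 of 1152 regions, 32.1% (95% Wilson interval 29.5 to 34.9), compared with 40.01% of all regions. Regions of ATAC5 alone reached 26.5%, of ATAC6 alone 29.1%, of exactly ATAC2, ATAC5 and ATAC6 19.5%, and of all 7 libraries 85.7%. The interval of the shared regions met that of ATAC6 alone, which ran from 27.6 to 30.6, and not those of the other 3 sets. When the lists were limited to peaks with a fold of at least 5, 1634 regions held exactly ATAC5 and ATAC6, which are not a part of the 1152. In that set the order turned, with 46.8% of its regions and 39.3% of all regions at promoters. Introns held 43.6% of shared regions, 39.7% lay between genes, 9.64% in untranslated regions, 4.6% in coding exons and 2.52% in other exons. The median distance to a start site was 4649 bases, and 32 regions lay over 100000 bases from one. Shared regions were scattered, with a median of 408392 bases to the next, and made up between 1.49% of all regions on chromosome X and 3.0% on chromosome 16, leaving out the 49 regions of chromosome Y, none of which was shared by exactly this pair.

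Promoter and distal members differed in their background. Shared regions at promoters had a median of 97 reads in ATAC5 and 81 in ATAC6 over 29 and 26 Input reads, which gave median folds of 5.89 and 4.97. Those away from promoters had 67 and 62 reads over 13 and 12 Input reads, with folds of 9.28 and 8.23. The median GC content of the central 200 bases was 64.0% at promoters and 50.5% elsewhere, and it was 63.0% over all promoter regions of the series.

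CTCF letters were more frequent in distal shared regions than in distal regions of the series. The 7-base core AGGNGGC was in the central 200 bases of 185 of 782 regions away from promoters, 23.7% (20.8 to 26.8), and in 17.7% of the 30406 such regions of the series, the largest difference among the 25 motifs searched. It was in 20.7% (19.1 to 22.3) of distal regions of ATAC6 alone and in 24.9% (22.5 to 27.4) of those called in all 7 libraries, and both intervals overlapped that of the shared regions. The 12-base pattern, whose last 7 letters can be the core, was in 102 of the 782, 13.04% (10.9 to 15.6), and in 6.44% of the series. It was in 9.53% (8.68 to 10.5) of distal regions of ATAC5 alone and in 11.2% (10.1 to 12.6) of those of ATAC6 alone. It was in 4.75% (4.01 to 5.62) of those of exactly ATAC2, ATAC5 and ATAC6, in 7.55% of those of exactly ATAC2 and ATAC5, in 4.14% of those of exactly ATAC2 and ATAC6, and in 5.80% of those called in all 7 libraries. The interval of the shared regions overlapped that of ATAC6 alone and of none of the other 5 sets named. Among regions of 45 to 55% GC the shares were 13.4% in shared regions and 6.8% in the series, and among shared regions over 500 bases from any other library the share was 14.7%. When the ATAC2 list was ignored, the share was 7.03% against 6.66%. The pattern lay a median of 24.5 bases from the region centre, and within 50 bases of it in 78 of the 102. A central position was not particular to it, as AP-1 letters lay at a median of 33.5 bases, within 50 bases in 116 of 169.

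Distal shared regions with the 12-base pattern had a median of 48 reads in ATAC5 and 48.5 in ATAC6, while those without had 69 and 65. Their folds over Input were 8.79 and 8.42, beside 9.35 and 8.20. Another library was farther off, at a median of 9616.5 bases against 4377.5. Of the 102 regions, 60 lay between genes and 41 in introns. At promoters the pattern was in 13 of 370 shared regions, 3.51% (2.06 to 5.92), and in 2.26% of all promoter regions, so that the difference seen away from promoters was not detectable there.

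**Figure D4:**
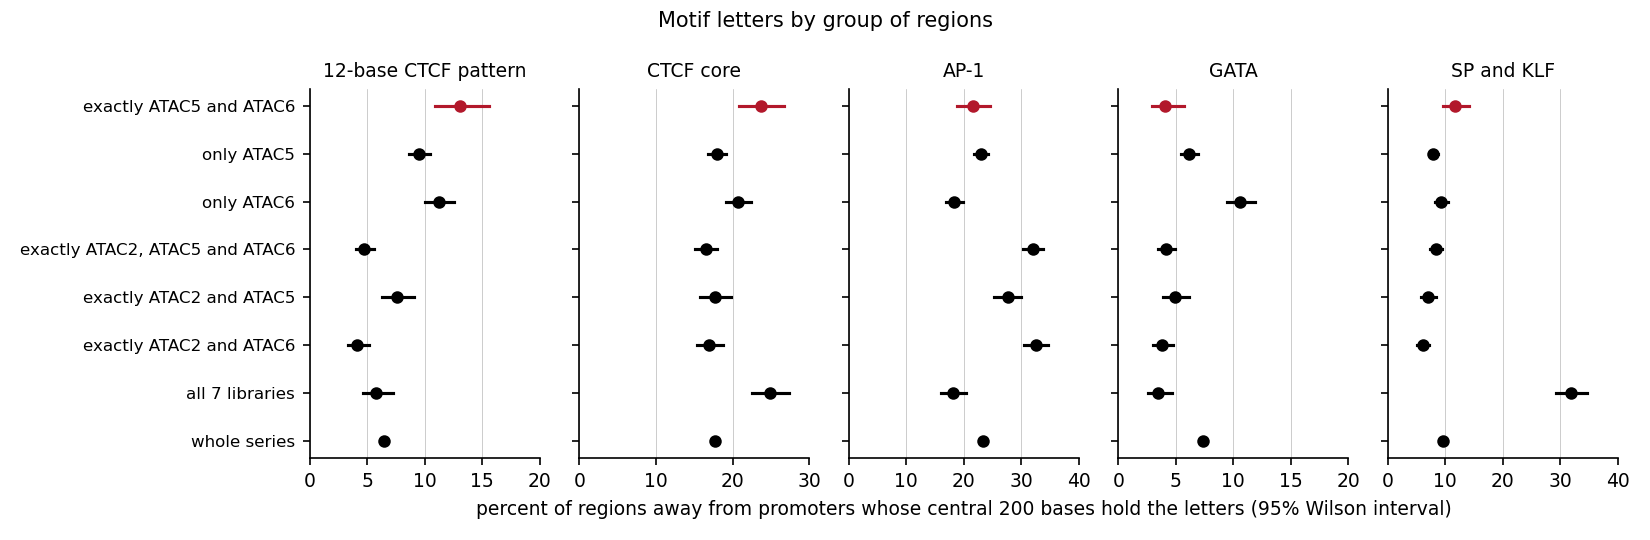
Percent of regions away from promoters, on the horizontal axes, whose central 200 bases hold the letters named above each panel, with 95% Wilson intervals that cover counting error only. The red point is exactly ATAC5 and ATAC6, which has the highest share of the 12-base CTCF pattern, 13.04%, and an AP-1 share of 21.6%, below the 32.0% of exactly ATAC2, ATAC5 and ATAC6.

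Of the other 24 motifs, the share of the series lay under the interval of the shared regions for the SP and KLF letters only, and over it for 3. AP-1 letters were in 169 of 782 distal shared regions, 21.6% (18.9 to 24.6), beside 23.3% of the series and 32.0% (30.3 to 33.8) of regions of exactly ATAC2, ATAC5 and ATAC6. When the ATAC2 list was ignored, AP-1 letters were in 30.1% (28.6 to 31.6) against 22.4% of the series. Only 7 regions held both AP-1 letters and the 12-base CTCF pattern, and 264, or 33.8%, held at least one. GATA letters, AGATAA, were in 4.09% (2.91 to 5.72) against 7.36% of the series. They were in 6.12% of regions of ATAC5 alone and 10.6% of those of ATAC6 alone, but in 4.13% of those of exactly ATAC2, ATAC5 and ATAC6, 4.89% of exactly ATAC2 and ATAC5, 3.78% of exactly ATAC2 and ATAC6 and 3.48% of all 7 libraries, so a low share was common to these sets. MEF2 letters, CTANNNNTA, were in 12.3% (10.2 to 14.8) against 15.8%, and PU.1 letters, GAGGAAGT, in 1.66% (0.974 to 2.82) against 3.0%. PU.1 letters were also at 1.19% in regions of ATAC6 alone, 1.92% in those of exactly ATAC2, ATAC5 and ATAC6, 1.6% in exactly ATAC2 and ATAC6 and 1.73% in exactly ATAC2 and ATAC5. They were at 2.50% in regions of ATAC5 alone and at 3.98% in those of all 7 libraries. Letters of SP and KLF factors, GGGCGG, were in 11.8% (9.69 to 14.2) against 9.60%. For the other 20 motifs the share of the series lay inside the interval of the shared regions. Among them were RUNX with TGTGGTT at 7.54% against 8.67%, TEAD with GGAATGT at 3.84% and C/EBP with TTGCNNAA at 9.34%. The E-boxes CAGCTG and CATCTG had 17.3% and 17.6%, the nuclear factor I letters TTGGCA 14.96%, SOX with ACAANGG 10.2% and the interferon factor letters AAANNGAAA 9.59%. Glucocorticoid receptor letters ACANNNTGT had 6.91%, and EBF with CCCNNGGGA, ETS with CGGAAG and STAT with TTCNNNGAA had 5.24% each. Homeobox letters TAATTA had 4.09%, NF-kappaB with GGGAANNCC 3.96%, NF-Y with CCAATCA and forkhead with TGTTTAC 2.81% each, and TCF and LEF with CTTTGAT 2.69%. The cyclic AMP element TGACGTCA was in 0.256%, and NRF1 letters GCGCATGCG were in 0 of 782, which allows up to 0.384%. Both strands were searched, a match is a description of letters only, and motifs that share letters can match at the same place.

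All 2080 words of 6 bases were also counted with their reverse complements. The 5 words with the largest excess over all other distal regions were AGGGGG at 18.8% against 13.6%, GCCCCC at 16.8% against 11.8%, ACCAGA at 18.4% against 13.7%, GGAGCA at 18.3% against 13.7% and CTCCGC at 9.72% against 5.66%. Deficits were of like size, with ACCACA, whose reverse complement TGTGGT is part of the RUNX letters, at 17.8% (15.3 to 20.6) against 22.8% and CACACA at 18.7% against 23.4%. Both were named after their values were seen.

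Of 22238 protein-coding genes, 5.16% had a shared region in the gene or within 10000 bases (1147 genes), and 42 of the 297 genes found in 15 lists did. The listed genes had 1320 regions within reach, of which 48, or 3.64%, were shared by exactly ATAC5 and ATAC6, beside 2.27% of all regions. Genes with a shared region were long, with a median of 27099 bases compared with 15512.5 over all genes. By list, the counts ran from 6 of 20 matrix genes to 0 of 19 erythroid and 0 of 19 myeloid genes, so lists of 20 differ by few genes.

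**Figure D5:**
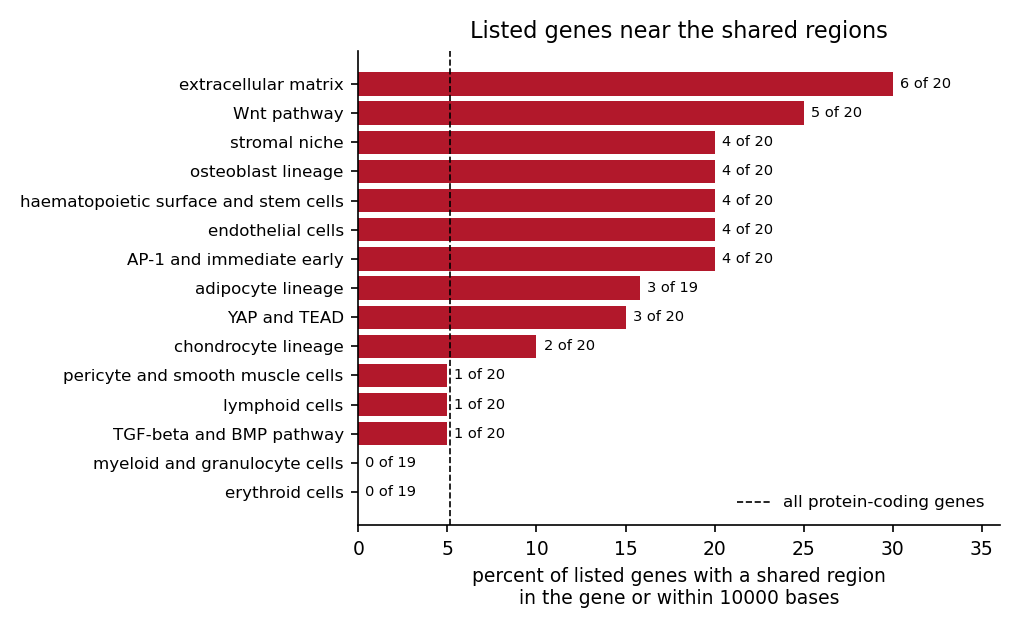
Percent of the genes of each list, on the horizontal axis, that had a region of exactly ATAC5 and ATAC6 in the gene or within 10000 bases, with the number of genes beside each bar and a dashed line at the 5.16% of all protein-coding genes. Matrix and Wnt genes are at the top with 6 and 5 of 20, and the erythroid and myeloid lists have 0 of 19 each.

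By number of genes, the matrix and Wnt lists had the most, while by share of regions in reach the matrix list came behind the Wnt, stromal niche, osteoblast and adipocyte lists. Of the matrix list, 6 of 20 genes, Col5a1, Mmp2 and Sparc among them, had 7 shared regions, which were 5.56% of the 126 regions in reach, at a median gene length of 72388 bases. Col15a1, a basement membrane collagen gene, had an intronic region with 128 reads in ATAC5 and 112 in ATAC6. Col12a1, a gene of a collagen that lies along fibrils, had 2, with 88 and 51 reads in the one and 78 and 56 in the other. Col8a1 had a region 885 bases upstream of its start with 118 and 57 reads and no other library within 40053 bases. Of the Wnt list, 5 of 20 genes, Ror2 included, had 7 shared regions, 10.1% of the 69 in reach. Wnt5b, a ligand of the noncanonical branch, had 182 and 79 reads at a start site, where the nearest other peak was 21990 bases away. At a second region it had 78 and 68 reads, with an ATAC1 peak at 9 bases. Wnt10b, a ligand that favours bone over fat formation, had 68 and 84 reads at a region that lies in its neighbour Arf3 and 79 and 50 reads at one 2619 bases upstream. Lef1, a transcription factor of the canonical branch, had 216 and 238 reads with an ATAC2 peak at 29 bases. In the introns of Tcf7l2, a related factor, the counts were 107 and 79.

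In the lineage lists, 4 of 20 osteoblast genes, 3 of 19 adipocyte genes and 2 of 20 chondrocyte genes had a shared region. Beside 2.27% of all regions, these were 6.35% of the 63 regions in reach of the osteoblast genes, 6.35% of the 63 of the adipocyte genes and 1.68% of the 119 of the chondrocyte genes. Alpl, which encodes the alkaline phosphatase of mineralising cells, had 63 reads in ATAC5 and 120 in ATAC6 at its start site, at 4.15 and 3.63 times Input, with no other library within 7150 bases. Runx2, the master factor of bone formation, had 107 and 86 reads at a start site with an ATAC2 peak 4 bases off. At Col1a2, a gene of the main bone collagen, the counts were 122 and 42, with an ATAC2 peak at 3 bases. Klf4 had 77 and 125 reads at 9216 bases upstream and 128 and 76 at its promoter, the latter 45 bases from an ATAC2 peak. Zfp423, a factor of preadipocytes, had 70 and 61 reads, and Plin1, the lipid droplet coat, 39 and 52. The region counted for Zfp423 lay between genes, 19942 bases from a 7SK start site and 92746 bases from the nearest protein-coding one. Matn3 and Hapln1, both of cartilage matrix, had 105 and 89 and 50 and 78 reads, and an ATAC2 peak lay 4 bases from the region in Matn3.

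The other niche and signalling lists had 1 to 4 genes each with a shared region. Of the stromal niche list, 4 of 20 genes had 1 region each, 9.09% of the 44 in reach. Cxcl12, the chemokine that holds blood stem cells in the marrow, had 72 reads in ATAC5 and 48 in ATAC6 at 1510 bases upstream. Kitl, the stem cell factor gene, had 106 and 171 reads at 516 bases downstream of a start site, beside an ATAC3 peak at 11 bases. Foxc1, a factor of niche cells, had 98 and 58 reads, and Prrx1, a limb mesenchyme factor, 68 and 79, the latter with an ATAC2 peak at 246 bases. In the AP-1 and immediate early list 4 of 20 genes had 5 regions, 3.16% of the 158 in reach. Fosl2 had 2 of these, with 132 and 36 and 51 and 61 reads, and Klf6, Nr4a1 and Jun had 1 each, with 150 and 132, 112 and 137 and 163 and 114 reads, the last at 3947 bases from its start site. An ATAC1 peak lay 6 bases from the region of Klf6. The region of Jun lay 66 bases from an ATAC2 peak and 146 bases from a start site of Gm12703. In the YAP and TEAD list 3 of 20 did, namely Tead1, Amotl2 with 95 and 65 reads and Vgll4 with 145 and 119, and these were 2.13% of the 141 regions in reach, near the 2.27% of all regions. ATAC2 peaks lay 417 bases from the region of Amotl2 and 442 bases from that of Vgll4. Of the TGF-beta and BMP list, 1 of 20 did, Smad3 with 93 and 48 reads, or 0.746% of the 134 regions in reach, under that of all regions.

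Lists of other cell types had between 0 and 4 genes with a shared region. Of the haematopoietic surface and stem cell list, 4 of 20 genes had 5 regions, 4.42% of the 113 in reach. Beside Gata2 these were Mecom with 120 and 82 reads at the one and 130 and 121 at the other, Myb with 74 and 60, and Runx1 with 90 and 101. An ATAC2 peak lay 44 bases from the second region of Mecom. The region in Myb lay 21 bases from a start site of Gm16786 and 15911 bases from one of Myb. Of the endothelial list, 4 of 20 genes had 1 region each, 5.26% of the 76 in reach. Egfl7, which encodes a secreted protein of vessels, had 142 reads in ATAC5 and 141 in ATAC6 at a start site over 65 and 60 Input reads. Erg, an endothelial ETS factor, had 98 and 124 reads 902 bases inside a start site. Sox18 had 72 and 47, and the region in Nos3 lay 64 bases from the start of Atg9b with 69 and 96. Of the lymphoid list only Cd79a had one, shared with Arhgef1, which was 2.94% of the 34 in reach. Of the pericyte and smooth muscle list only Heyl had one, with 73 and 65 reads, which was 1.92% of the 52 in reach. Over whole lists, a start site was called in ATAC5 for 7 of 20 endothelial genes and in ATAC6 for 4, and for 16 and 13 of 20 haematopoietic surface and stem cell genes, 8 and 6 of 19 myeloid, 5 and 4 of 20 lymphoid, 8 and 11 of 19 erythroid and 9 and 4 of 20 pericyte genes. The stromal niche list had 12 and 9 of 20, compared with 52.9% and 51.6% of all protein-coding genes. Its genes called in neither library were Dcn, Fbln1, Lum, Ly6a, Prrx1, Thy1 and Vcam1. Ptprc, the CD45 gene, was called at a start site in ATAC5 and not in ATAC6, Pecam1, the CD31 gene, likewise, and Pdgfra in both, while the start site of Ly6a, the Sca-1 gene, was called in no library. The part of other cell types in the shared regions was not tested.

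At 113 protein-coding genes, 0.508% of all, every region with its midpoint within 1000 bases of a start site was a shared region. ATAC6 alone gave 115 such genes, ATAC5 alone 297, exactly ATAC2, ATAC5 and ATAC6 259, exactly ATAC2 and ATAC5 101, and exactly ATAC2 and ATAC6 75. The 113 genes rested on 111 regions with a median GC content of 68.5%. They held 33 to 213 reads in ATAC5 with a median of 87 and 34 to 162 in ATAC6 with a median of 75. For 111 of the genes no other library had a peak within 500 bases of the region, and for 82 none within 10000 bases. At the other 2, Mtmr11 and Crb3, an ATAC2 peak lay 1 base and 465 bases away. Of the listed genes, Alpl, Egfl7, Erg and Gata2 were among them.

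The genes named next from the 113 were chosen after their values were seen, for what they encode. Vdr, the vitamin D receptor, had 138 reads in ATAC5 and 136 in ATAC6. Tnfrsf11a, the receptor RANK of osteoclast precursors, had 46 and 50. Gdf6, a BMP ligand of joints, had 80 and 46, and Fstl1, which encodes a secreted glycoprotein that binds BMP ligands, 128 and 65. Ret, a receptor tyrosine kinase, had 161 and 110 reads over 69 and 60 Input reads, and Erbb2, another, had 133 and 65. Lefty1, an inhibitor of Nodal, had 42 and 97, and Apln, the ligand of the apelin receptor, 64 and 66. Pygo1, a cofactor of beta-catenin, had 213 and 87. The counts of Erbb2, Pygo1 and Lefty1 differed by over 2 times between the libraries, and those of the rest by less.

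Few genes held several shared regions. Of all protein-coding genes 89 had 2 or more and 4 had 3 or more. Gm20388, a readthrough locus of 4434882 bases, had 5 of the 243 regions in its reach. Gramd2, Bsn, a scaffold gene of nerve terminals, and Col27a1, a cartilage collagen gene, had 3 each. In Gramd2 the counts were 71 and 142 reads at its start site, 58 and 172 at the second region and 57 and 65 at the third. An ATAC3 peak lay 280 bases from the second. In Col27a1 the counts were 92 and 95, 135 and 50, and 54 and 79, with an ATAC2 peak 12 bases from the first region. The 11 next in order had 2 each, among them Smo, the transducer of hedgehog signals, Prrt4, Ahdc1, Pkm2, Fndc3b, Inf2, Ppfibp2, Zbtb7c, Srcin1 and Mecom. The regions at Smo lay at its promoter with 193 and 149 and with 203 and 92 reads, and an ATAC2 peak lay 28 bases from the former and 460 bases from the latter. The 2 in reach of Pkm2 were the first and the third of its neighbour Gramd2.

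The promoters nearest to distal shared regions were called about as often as those nearest to other distal regions. For 388 of 782, 49.6% (46.1 to 53.1), the nearest protein-coding gene had a start site called in all 7 libraries, compared with 51.4% over all distal regions. For 166, 21.2% (18.5 to 24.2), it had no called start site, compared with 20.9%.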

How the data were processed

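ATAC-seq was run on sorted bone marrow stromal cells, 1 library per title. The authors used bowtie with mm9, then CisGenome in two-sample mode for every library against Input, at a p-value limit of 1e-05 and an FDR under 0.01. Bowtie, bedtools and DiffBind are named in the submitters' processing notes. Any shift for the transposase, which affects where a peak ends, and any removal of duplicates, which affects read numbers, are not given in the sources used here. The deposited tables have no header. The authors' counts of library and Input reads, as deposited, cover an outer region wider than the peak. The authors' fold is a ratio, the scaled library reads over the Input reads plus 0.01, which is very high at 0 Input reads (3 of the 1152 regions). The deposited signal columns, a ranking statistic and a window value, support no printed value. Lists held between 15188 and 32280 peaks, and total library depth is not given in the sources used here.

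Peaks (164103) were merged where at least 1 base was shared. Annotation was GENCODE vM1, and sequence was NCBIM37 (mm9). A promoter region had its midpoint within 1000 bases of a start site. Motifs were searched on both strands in 200 bases around the midpoint. A gene had a region when its midpoint lay in the gene or within 10000 bases. Of 300 listed genes 297 matched, older symbols included. Shares have 95% Wilson intervals. Intervals and floors (3 counts) cover counting error only, and regions are not replicates. No test was run, because each title had 1 library. Named were the 10 best-ranked regions with at least 10 Input reads, the best of each list, up to 4 genes per list and those with 2 or more regions, the 15 genes with the most regions (ties by best rank), all motifs and 5 words. The regions, lists and motifs were chosen with earlier results of these data known. Merging was run on simulated data with widths drawn from the files, where 2302 of 2302 planted regions of this pair were recovered. The simulated sites lay far apart and all peaks of a site covered its midpoint, so full recovery was fixed by the setting. It checks the code only, and close neighbours of other libraries were not simulated. Python 3.11.15 with pandas 2.3.3, scipy 1.17.1 and pysam 0.24.0 and samtools 1.23.1 were used. A few items that the naming rule would give are not reported here.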

Additional observations from a re-analysis of the deposited data

How the results depend on the processing

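No paired analysis was possible because no title had a replicate. The number of shared regions stayed within 1.5 times the 1152 in 12 of 15 alternatives. It was 243 when each list was limited to its 15188 best peaks, 4435 without the ATAC2 list, which adds the regions of exactly ATAC2, ATAC5 and ATAC6, and 74 in the better-ranked 50% of both lists. The promoter share of 32.1% was 49.0% with equal lists, 46.8% with a fold of at least 5, 54.1% in the better-ranked 50%, 35.6% without ATAC1 and 23.0% without ATAC2. It was 26.9% when peaks within 500 bases were joined, 28.8% with outer regions, 24.3% and 42.3% with limits of 500 and 2500 bases, 26.1% over 500 bases from other libraries and 29.2% outside their outer regions. With a fold of at least 5, which gave 1634 regions of this pair and so not a part of the 1152, it was above the 39.3% of the series. With equal lists the series had 57.5%, and for the better-ranked 50% the series was not limited in the same way, so that value has no matched comparison. The CTCF core share of 23.7% was 27.4% with equal lists, 18.5% without ATAC2, and 15.3% and 36.2% in windows of 100 and 400 bases. The 12-base CTCF share of 13.04% was 10.5% with equal lists, 7.03% without ATAC2, 8.82% in the better-ranked 50%, and 9.46% and 16.9% in the 2 windows. Without ATAC2 the series had 18.1% and 6.66%, within the intervals of 17.2 to 19.8% and 6.22 to 7.94%. In the better-ranked 50% the intervals, 12.4 to 39.996% for the core and 3.05 to 23.0% for the 12-base pattern, also held the values of the whole series, 17.7% and 6.44%. In the other alternatives both CTCF shares were above the series, which lay under the interval. The AP-1 share of 21.6% was 30.1% (28.6 to 31.6) without ATAC2, above the 22.4% of the series. It was 19.1% (16.9 to 21.6) without ATAC1 and 21.3% (18.7 to 24.1) with a fold of at least 5, below 24.3% and 24.2%. In the other alternatives the AP-1 share of the series lay inside the interval. Genes with a shared region, 1147, were 285 with equal lists, 1860 with a fold of at least 5, 3028 without ATAC2, 87 in the better-ranked 50%, 633 within the gene and 2564 within 50000 bases. The 12-base pattern, the 500-base distance, the outer regions of other libraries and the GC range were chosen after seeing the data. The causes were not tested. What depth limits was not tested, since total depth is not given in the sources used here and the files give no reads where a library has no peak.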
